A study of Mus musculus with 4 samples.

Results

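Acyl-CoA synthetases and the Slc27 transport proteins attach coenzyme A to fatty acids and other carboxylic acids. The set comprised 10 genes, namely Acsl1, Acsl3, Acsl4, Acsl5, Acsm1, Acsm3, Acss2, Slc27a1, Slc27a2 and Slc27a4. Members were all probe sets whose annotated gene symbol was that of 1 of these genes. This gave 11 probe sets of 8 genes among the 12393 genes named on the array. Acsl4 was read by 3 probe sets, Acss2 by 2 and each of the other 6 genes by 1. Acsl1 and Acsl3 were not analysed here.

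The question was which of these genes depend on PPARα, the fatty acid sensing nuclear receptor, for their hepatic expression. Liver RNA was compared between PPARα-null mice (129S4/SvJae) and wild-type mice (129S1/SvImJ), all male and 12 to 20 weeks of age. The mice received food containing 0.1% of the synthetic PPARα agonist Wy14643 or control food for 5 days, and 5 mice per group were listed in the design text. The results of the paper give a range of mice per pool, with 5 as its upper end. The resulting groups were PPARα-null on Wy14643, wild-type on Wy14643, PPARα-null on control diet and wild-type on control diet. RNA was pooled within each group and hybridized to 1 Affymetrix MOE430A array. Every ratio below therefore lacks a replicate check and a p-value, its precision being limited by the number of arrays. The labels place the genotypes on different substrains, so substrain and PPARα genotype cannot be told apart in the comparisons between genotypes. The disruption is carried by the whole animal, not by hepatocytes alone.

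A fatty acid must be activated to its acyl-CoA before it can be oxidized, esterified or elongated. Long-chain synthetases (Acsl) sit on the membranes of mitochondria, endoplasmic reticulum and other organelles, medium-chain synthetases (Acsm) work in the mitochondrial matrix, and Acss2 activates acetate in cytosol and nucleus. Slc27 proteins, also named fatty acid transport proteins, promote uptake of fatty acids and most of them carry acyl-CoA synthetase activity for very long chains. PPARα binds DNA together with RXR at direct repeats of a half-site separated by a single base (DR1), and activation of fatty acids in liver is a textbook process under its control.

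Since the members differed in their response to the PPARα agonist, their promoters were searched for the half-site AGGTCA and for the DR1 sequence AGGTCANAGGTCA on both strands. The promoters comprised the 250 bases before each transcript start in a RefSeq table (assembly GRCm38.p6). That start was the annotated start of the gene for Acss2, Slc27a2 and Slc27a4. For the other 5 genes it lay inside the annotated gene, 55 bases in for Acsm1, 267 for Acsl4 and 1508 for Acsl5. A DR1-like match was allowed up to 3 mismatches in its 12 fixed bases. All 8 genes were found, Slc27a1 with 3 starts. A DR1-like match was present for 4 genes, namely Acsl4, Acsl5, Acsm1 and Slc27a2, and for none of the starts of Acsm3, Acss2, Slc27a1 and Slc27a4. Of 32851 promoters of the same length, 21.3% held such a match, 3.24% with at most 2 mismatches, 0.484% with at most 1 and 0.0335% with none, and 14.0% held the half-site. The half-site occurred in the promoters of Acsm1 and Slc27a2, inside the DR1-like match in each. The promoters of the 3 genes whose start is that of the annotated gene are printed 5′ to 3′ on the strand of the gene, with DR1-like matches in capitals. Slc27a4 had the largest ratio of the members, Slc27a2 held a match but reached no threshold, and Acss2 had its lowest intensity in PPARα-null livers on Wy14643. They lie at chr2:29802384-29802633 (plus strand, Slc27a4), chr2:126552774-126553023 (plus strand, Slc27a2) and chr2:155517793-155518042 (plus strand, Acss2).
Slc27a4: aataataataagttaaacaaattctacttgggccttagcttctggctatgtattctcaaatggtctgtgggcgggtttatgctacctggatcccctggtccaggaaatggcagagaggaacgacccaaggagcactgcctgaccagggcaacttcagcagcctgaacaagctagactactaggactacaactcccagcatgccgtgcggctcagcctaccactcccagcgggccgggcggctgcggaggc
Slc27a2: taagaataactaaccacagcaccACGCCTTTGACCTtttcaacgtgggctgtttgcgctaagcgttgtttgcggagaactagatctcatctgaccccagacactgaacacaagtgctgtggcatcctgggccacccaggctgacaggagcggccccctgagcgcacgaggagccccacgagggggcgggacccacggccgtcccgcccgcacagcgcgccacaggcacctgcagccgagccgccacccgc
Acss2: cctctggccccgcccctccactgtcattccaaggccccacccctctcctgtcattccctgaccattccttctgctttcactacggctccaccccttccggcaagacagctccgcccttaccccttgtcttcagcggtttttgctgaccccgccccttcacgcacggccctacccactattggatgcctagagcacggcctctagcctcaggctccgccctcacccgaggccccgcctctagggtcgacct
The match in Slc27a2 began 227 bases before the start and lay on the opposite strand, where it reads AGGTCAAAGGCGT. That in Acsl5, GGGTCACAGAACA, began 14 bases before the start used, on the strand of the gene. Acsm1 held 2 overlapping matches on the opposite strand, 1 of which reads AGGTCAGAAAACA. A match is a similarity in letters and not a binding site, and a promoter without one may hold other sequences outside this window.

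Intensities are the GCRMA values deposited by the authors, on the linear scale. Median intensity was 14.51 and 14.56 on the PPARα-null and wild-type arrays from Wy14643-fed mice, against 14.23 and 14.27 on the PPARα-null and wild-type control arrays. An intensity above 12.78 was regarded as above background, that is, above the 90th percentile of 106 probe sets for 68 genes without known expression in liver. This held for 53.6 to 54.5% of 22626 probe sets per array and for 10 of the 11 member probe sets on all 4 arrays. A gene was read from its probe set with the highest mean and counted as higher or lower when its ratio reached 1.5. Percentages of all genes refer to the 7958 named genes above background on at least 1 array, which include all 8 members. Ppara, the disrupted gene, had an intensity of 428 in PPARα-null and 1250.1 in wild-type livers on Wy14643, and of 326 in PPARα-null and 847 in wild-type livers on control diet. Signal of Ppara thus remained in PPARα-null liver, and the position of its probe set relative to the disruption is not given in the sources used here.

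On Wy14643, 5 of the 8 genes were lower in livers of PPARα-null mice than in those of wild-type mice: Slc27a4, Slc27a1, Acss2, Acsl5 and Acsm3. Slc27a1 entered this count only through the wild-type Wy14643 array, where it exceeded background. Of the 7 genes above background on both arrays, 4 were lower. Acsm1 was higher in PPARα-null livers, and Acsl4 and Slc27a2 lay between the thresholds. In whole liver, fewer cells of a type and less RNA per cell cannot be told apart. The median log2 ratio of the 8 genes was -1.49, where that of all genes was 0.02. The members and the gene lists used below were chosen with earlier results of these data known. Their counts and medians are therefore descriptions. Of all genes, 16.0% were lower and 17.1% higher in PPARα-null livers on Wy14643. On control diet, 1 of the 8 genes (Acss2) was lower and 0 were higher in PPARα-null livers, with a median of -0.23 against 0.02 for all genes. The share of all genes was 2.30% lower and 2.32% higher, or 183 and 185 genes, which became 213 and 140 genes when each array was centred on its median.

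In PPARα-null livers, 0 of the 8 genes were higher on Wy14643 than on control diet and 1, Acss2, was lower, with a median log2 ratio of -0.06 against 0.01 for all genes. Of all genes, 2.20% were higher and 4.20% lower on Wy14643 in PPARα-null livers, that is 175 and 334 genes, and 268 and 275 genes after centring. In wild-type livers, 4 of the 8 genes were higher on Wy14643 (Slc27a4, Slc27a1, Acsm3 and Acsl5), and Acsm1 was lower. Slc27a1 again exceeded background only on the wild-type Wy14643 array. Of the 7 genes above background on both arrays, 3 were higher. The median log2 ratio was 0.61 in wild-type livers, where that of all genes was 0.02. Of all genes, 14.3% were higher on Wy14643 and 15.4% lower. The 4 comparisons share arrays. In particular, the wild-type Wy14643 array enters both the comparison of genotypes on Wy14643 and the comparison of diets in wild-type livers, so those 2 sets of ratios are not independent readings.

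**Figure D1:**
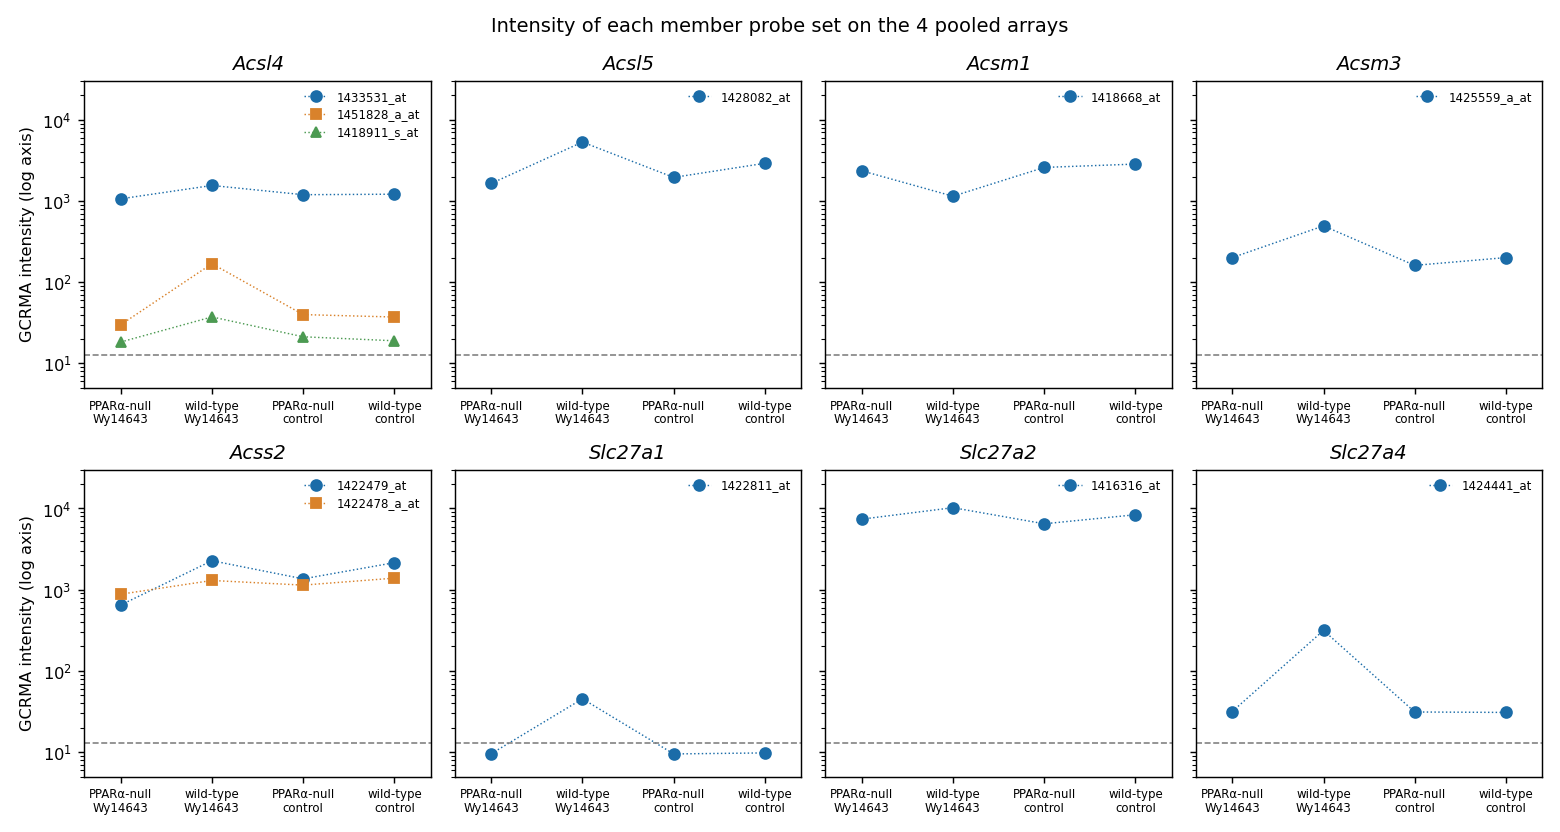
GCRMA intensity (logarithmic axis) of the 11 member probe sets on each of the 4 pooled arrays, 1 panel per gene and 1 symbol per probe set, with background (12.78) as a dashed line. Points are single arrays and the dotted lines only guide the eye. Slc27a4 and Slc27a1 stand up on the wild-type Wy14643 array alone, Acsm1 is lowest there, and the first probe set of Acss2 is lowest in PPARα-null livers on Wy14643.

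Slc27a4 encodes a fatty acid transport protein that activates long and very long chains. Its intensity read 31.6 in PPARα-null and 315 in wild-type livers on Wy14643, and 31.2 in PPARα-null and 30.8 in wild-type livers on control diet. A single array was thus high, and the remaining 3 lay within 1 unit of one another. On Wy14643, Slc27a4 was 9.97-fold lower in PPARα-null livers, and between genotypes on control diet the log2 ratio was 0.02. Wy14643 over control diet gave a log2 ratio of 0.02 in PPARα-null livers and a 10.2-fold higher intensity in wild-type livers. With 32 added to every intensity, the log2 ratios became -2.45 between genotypes on Wy14643 and 2.47 for Wy14643 in wild-type livers, where they were -3.32 and 3.35 as deposited. Only 34 of 7958 genes had a higher ratio of Wy14643 to control diet in wild-type livers, and 72 had a lower ratio between genotypes on Wy14643. The RefSeq promoter of this gene, printed above, held neither the half-site nor a DR1-like match in 250 bases.

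Slc27a1 is the transport protein best known from muscle and adipose tissue. Its intensity read 9.56 in PPARα-null and 45.4 in wild-type livers on Wy14643, and 9.50 in PPARα-null and 9.78 in wild-type livers on control diet. It was above background on the wild-type Wy14643 array and below background on the other 3. Against background, Slc27a1 was therefore at least 3.55-fold lower in PPARα-null than in wild-type livers on Wy14643, and at least 3.55-fold higher on Wy14643 than on control diet in wild-type livers. With 32 added to every intensity, the log2 ratios were -0.90 and 0.89 in these comparisons. No ratio is given where both arrays lay below background.

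Slc27a2 encodes the very long-chain acyl-CoA synthetase and transport protein characteristic of liver and kidney. It had intensities of 7392 in PPARα-null and 10233 in wild-type livers on Wy14643, against 6482 in PPARα-null and 8376 in wild-type livers on control diet. Both wild-type arrays were above both PPARα-null arrays, but no ratio reached 1.5. The gene was 1.38-fold lower in PPARα-null livers on Wy14643 and 1.29-fold lower on control diet, and Wy14643 over control diet gave 1.14-fold in PPARα-null and 1.22-fold in wild-type livers. The promoter of Slc27a2 contained a DR1-like match with 1 intact half-site, whereas that of Slc27a4 contained none.

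Acsl5, a long-chain synthetase of mitochondria and endoplasmic reticulum, had an intensity of 1646 in PPARα-null and 5315 in wild-type livers on Wy14643. On control diet it read 1952 in PPARα-null and 2914 in wild-type livers. The order thus ran from PPARα-null on Wy14643, through PPARα-null and wild-type on control diet, to wild-type on Wy14643. Acsl5 was 3.23-fold lower in PPARα-null livers on Wy14643. On control diet it was 1.49-fold lower in PPARα-null livers, just under the threshold, and 186 of 7958 genes had a lower ratio in that comparison. Centring the arrays or cyclic loess moved it past the threshold (log2 ratio -0.62 and -0.59, against -0.58 as deposited). Wy14643 over control diet gave a log2 ratio of -0.25 in PPARα-null livers and 0.87, or 1.82-fold higher, in wild-type livers.

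Acsl4, the synthetase that prefers arachidonic acid, differed between probe sets. With 1433531_at, which had the highest mean and stands for the gene, intensity read 1064 in PPARα-null and 1553 in wild-type livers on Wy14643, and 1195 in PPARα-null and 1213 in wild-type livers on control diet. This probe set was 1.46-fold lower in PPARα-null livers on Wy14643 and 1.28-fold higher on Wy14643 in wild-type livers, below the threshold in both. With 1451828_a_at, intensity read 29.9 in PPARα-null and 169 in wild-type livers on Wy14643, and 39.9 in PPARα-null and 37.3 in wild-type livers on control diet. That gave a ratio 5.65-fold lower in PPARα-null livers on Wy14643 and 4.53-fold higher on Wy14643 in wild-type livers. With 1418911_s_at, intensity read 18.4 in PPARα-null and 37.4 in wild-type livers on Wy14643, and 21.3 in PPARα-null and 19.0 in wild-type livers on control diet, and the lower 3 of these were close to background. The ratios of this last probe set were 2.04-fold lower and 1.97-fold higher in the same comparisons. All 3 probe sets were highest on the wild-type Wy14643 array and lowest in PPARα-null livers on Wy14643, but they differed in size. Which transcripts of Acsl4 each detects was not tested, and probe sets with a letter before the ending may bind several transcripts.

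Acsm3 and Acsm1 encode medium-chain synthetases of the mitochondrial matrix and had opposite ratios. Acsm3 had an intensity of 201 in PPARα-null and 494 in wild-type livers on Wy14643, and of 161 in PPARα-null and 201 in wild-type livers on control diet. Here the wild-type Wy14643 array was high and the other 3 were close together. Acsm3 was 2.46-fold lower in PPARα-null livers on Wy14643. Over control diet, its log2 ratio on Wy14643 was 0.32 in PPARα-null livers and 1.30, or 2.46-fold higher, in wild-type livers. Acsm3 was read by 1425559_a_at only. Acsm1 had an intensity of 2354 in PPARα-null and 1145 in wild-type livers on Wy14643, and of 2590.4 in PPARα-null and 2849 in wild-type livers on control diet. In this case the wild-type Wy14643 array was low. Acsm1 was 2.06-fold higher in PPARα-null livers on Wy14643. Over control diet, its log2 ratio on Wy14643 was -0.14 in PPARα-null livers and -1.31, or 2.49-fold lower, in wild-type livers. Of 7958 genes, 368 had a lower ratio of Wy14643 to control diet in wild-type livers. In the reference annotation Acsm5, Acsm2, Acsm1, Acsm4 and Acsm3 lie in this order on chromosome 7, in a span with 7 protein-coding genes. The promoters of the pair differed in that Acsm1 held 2 overlapping DR1-like matches and Acsm3 none. Whether probes of 1 Acsm gene also bind transcripts of another was not tested.

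Acss2, which activates acetate and is a known target of SREBP transcription factors, was the only member at least 1.5-fold lower in both comparisons of genotypes. With 1422479_at, intensity read 648 in PPARα-null and 2275 in wild-type livers on Wy14643, and 1360.2 in PPARα-null and 2152.5 in wild-type livers on control diet. Both wild-type arrays were high and the PPARα-null Wy14643 array was lowest. Acss2 was 3.51-fold lower in PPARα-null livers on Wy14643 and 1.58-fold lower on control diet. In PPARα-null livers it was 2.10-fold lower on Wy14643 than on control diet, where 52 of 7958 genes had a lower ratio, and in wild-type livers the log2 ratio was 0.08. The other probe set, 1422478_a_at, had intensities of 880 in PPARα-null and 1299.5 in wild-type livers on Wy14643, and of 1139 in PPARα-null and 1388 in wild-type livers on control diet. Its log2 ratios had the same sign in these 3 comparisons but none reached the threshold: -0.56 and -0.29 between genotypes on Wy14643 and on control diet, and -0.37 for Wy14643 in PPARα-null livers. In wild-type livers this probe set gave -0.10 for Wy14643. The median over both probe sets was -1.19 between genotypes on Wy14643, against -1.81 with the first alone.

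**Figure D2:**
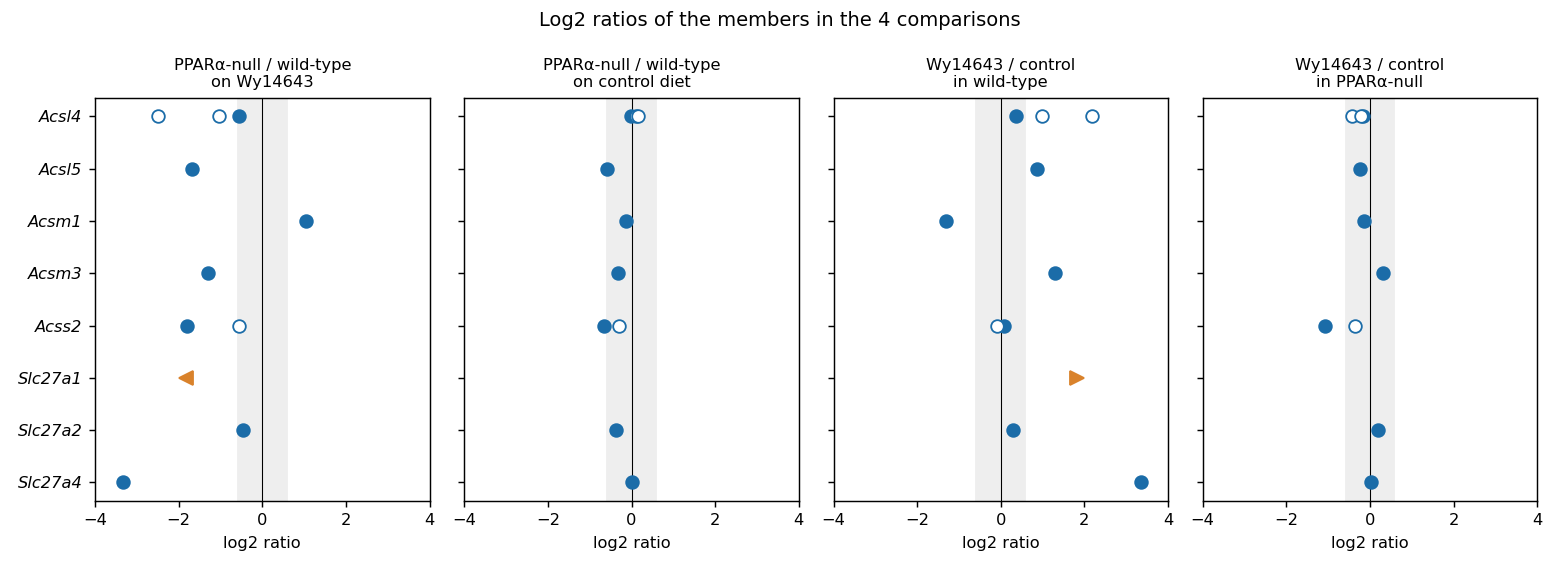
Log2 ratio (horizontal axis) of each member in the 4 comparisons. Filled circles are the probe set that stands for the gene, open circles its other probe sets, triangles the smallest ratio that background allows for Slc27a1, and the grey band the range below 1.5-fold. On Wy14643, the filled circles or triangles of 5 genes lie left of the band between genotypes and Acsm1 lies right of it. The open circles of Acsl4 also lie left of the band there. On control diet and in PPARα-null livers, only Acss2 leaves it.

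The response to Wy14643 was next compared between genotypes, as the log2 ratio over control diet in PPARα-null livers minus that in wild-type livers. This difference was -3.34 for Slc27a4, -2.20 for Slc27a1, -1.15 for Acss2, -1.11 for Acsl5, -0.98 for Acsm3, -0.53 for Acsl4 and -0.10 for Slc27a2, and 1.18 for Acsm1. Over all 7958 genes its SD was 0.88, and its 5th and 95th percentiles were -1.22 and 1.23. Slc27a4 thus lay outside this range. Acss2, Acsl5, Acsm3, Acsl4, Slc27a2 and Acsm1 lay inside it. Slc27a1 was not placed, since its value uses 3 intensities below background. It became -1.83 with background as the floor and -0.89 with 32 added to every intensity. The difference for Acss2 came from a lower value on Wy14643 in PPARα-null livers, whereas those for Slc27a4, Slc27a1, Acsl5 and Acsm3 came mainly from a higher value, and that for Acsm1 from a lower value, on Wy14643 in wild-type livers. With the other probe sets it was -2.60 and -1.19 for Acsl4 and -0.28 for Acss2.

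**Figure D3:**
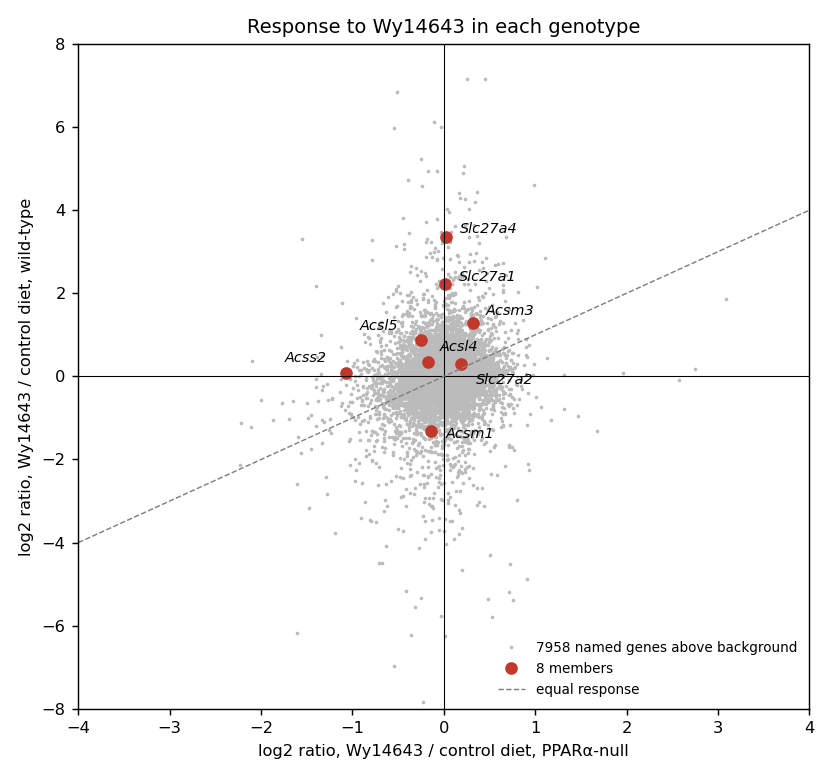
Log2 ratio of Wy14643 over control diet, in PPARα-null livers (horizontal axis) and wild-type livers (vertical axis, other scale), for the 8 members (red) and all 7958 named genes above background (grey), with equal response as a dashed line. Slc27a4 and Slc27a1 lie high near the vertical axis, Acsm1 lies low, and Acss2 lies far left near the horizontal axis.

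The genes closest to Slc27a4 over the 4 arrays were sought among 6680 genes above background on all of them, by Euclidean distance of log2 values relative to the wild-type control array. They were Dhrs7b (distance 0.28), P2ry14 (0.31) and the acyl-CoA thioesterase gene Acot1 (0.33). Relative to the wild-type control array, the wild-type Wy14643 array was higher by a log2 ratio of 3.09 for Dhrs7b, 3.30 for P2ry14 and 3.34 for Acot1, where Slc27a4 itself had 3.35. Closest to Acsm1 were Rnf103 (0.05), Tmem19 (0.10) and Bst2 (0.12). These distances rest on 3 values per gene.

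Among the other 15 genes listed for the acyl-CoA synthetase family, 9 were named on the array and 4 of those were above background. Slc27a5, which activates bile acids as well as very long-chain fatty acids, had an intensity of 4471 in PPARα-null and 2013 in wild-type livers on Wy14643, and of 3715.5 in PPARα-null and 3727 in wild-type livers on control diet. It was thus 2.22-fold higher in PPARα-null livers on Wy14643 and 1.85-fold lower on Wy14643 in wild-type livers, the same directions as Acsm1. Acsf2, a medium-chain synthetase, had an intensity of 51.2 in PPARα-null and 249.5 in wild-type livers on Wy14643, and of 35.2 in PPARα-null and 62.6 in wild-type livers on control diet, with log2 ratios between genotypes of -2.28 on Wy14643 and -0.83 on control diet. Aacs, the acetoacetyl-CoA synthetase, had an intensity of 74.1 in PPARα-null and 71.8 in wild-type livers on Wy14643, and of 72.0 in PPARα-null and 118 in wild-type livers on control diet. Here the wild-type control array was high, and Aacs was lower in PPARα-null livers on control diet by a log2 ratio of -0.71. Another probe set of Aacs, also above background on all 4 arrays, read 60.6 in PPARα-null and 78.7 in wild-type livers on control diet. Its log2 ratio of -0.38 had the same sign but did not reach 1.5-fold, so the lower call for Aacs depended on the probe set. Acsf3, a malonyl-CoA synthetase, lay between the thresholds in every comparison. Acsl6, Acsbg1, Acsm2, Acss1 and Slc27a3 were below background on all 4 arrays.

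The steps before and after activation were counted in the same way, between genotypes on Wy14643. The lists were chosen with earlier results of these data known. Genes named from them had the 2 largest ratios of their list in this comparison, among genes above background on both arrays. For uptake and binding of fatty acids, 7 of 12 genes were lower and 0 higher in PPARα-null livers (median log2 ratio -1.09). The binding protein Fabp3, near background in PPARα-null livers (17.0), was 158-fold and Fabp4 56.3-fold lower. For acyl-CoA thioesterases, which cleave acyl-CoA, 10 of 11 genes were lower and 0 higher (median -1.51), or 8 when intensities below background were set to background. Acot5 entered the count of 10 only through the wild-type Wy14643 array, where alone it exceeded background. Acot4 was 26.3-fold and Acot2, near background in PPARα-null livers (13.5), 17.1-fold lower. For the carnitine route into mitochondria, 6 of 6 genes were lower (median -3.81), among them the carnitine transporter Slc22a5 (45.3-fold) and the carnitine acetyltransferase Crat (43.1-fold). For peroxisomal uptake and the first steps of oxidation, 5 of 8 genes were lower and 0 higher (median -1.70), among them the bifunctional enzymes Ehhadh (5.11-fold) and Hsd17b4 (4.23-fold). For the use of acyl-CoA in glycerolipid synthesis, 6 of 8 genes were lower and 1 higher (median -0.99). Mogat1 entered this count only through the wild-type Wy14643 array, where alone it exceeded background. Here Gpat4, an acyltransferase, was 5.22-fold lower and Lpin1, a phosphatidate phosphatase, 9.05-fold higher in PPARα-null livers. Of all genes, 16.0% were lower in this comparison, as given above. On control diet, the numbers lower in PPARα-null livers were 3 of 12, 3 of 11, 3 of 6, 5 of 8 and 0 of 8 in the same order, and 2 uptake and binding genes were higher. With background as the floor the first of these counts was 2 of 12. Of all genes, 2.30% were lower and 2.32% higher on control diet.

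**Figure D4:**
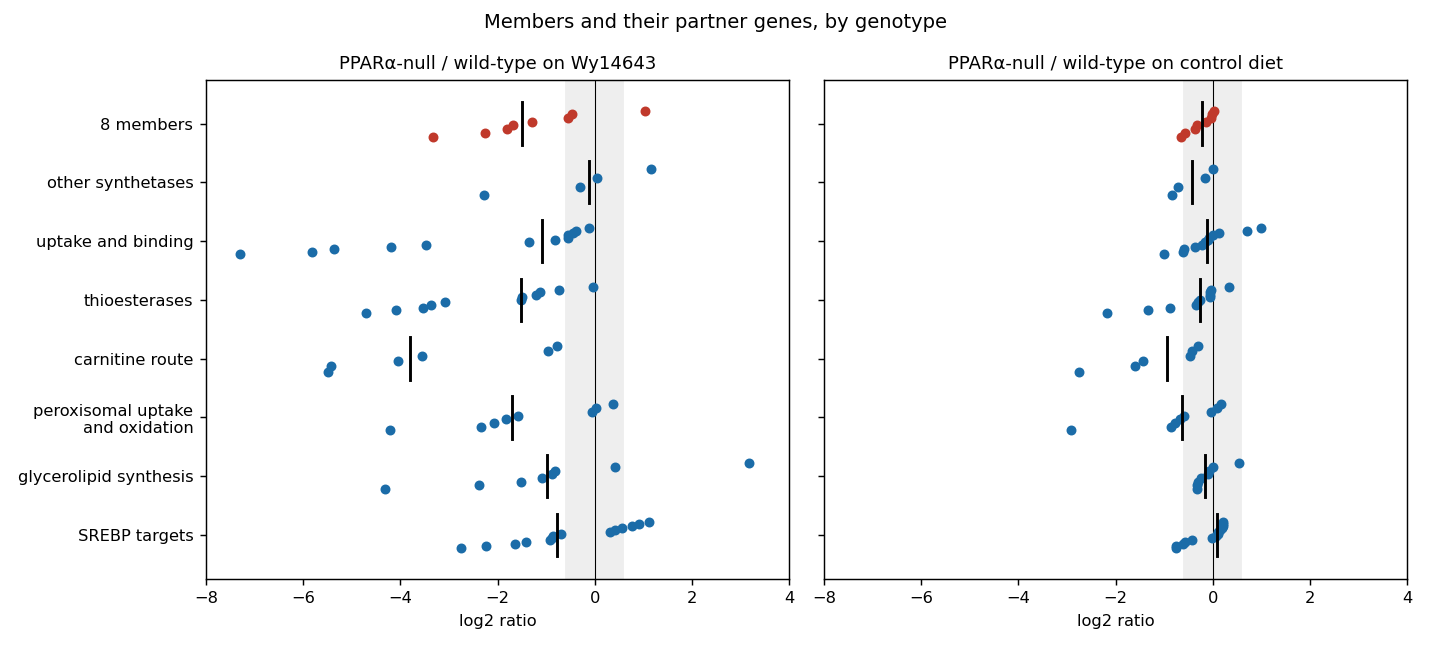
Log2 ratio of PPARα-null to wild-type livers on Wy14643 (left) and on control diet (right) for the 8 members (red) and the genes of 7 lists (blue), 1 point per gene above background. Ratios are those of the deposited values, vertical bars are medians and the grey band marks less than 1.5-fold. On Wy14643 the bar lies left of the band for the members and for all lists but that of other synthetases, and on control diet those of the members, other synthetases, uptake, thioesterases, glycerolipid synthesis and SREBP targets lie inside it.

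Since Acss2 is a SREBP target, other sterol and lipogenic genes known as such targets were compared. In PPARα-null livers, 6 of 14 genes were lower on Wy14643 than on control diet and 0 were higher (median log2 ratio -0.48), where Acss2 was 2.10-fold lower and 4.20% of all genes were lower. The 6 genes, listed after their values were seen, were the cholesterol synthesis genes Fdps (2.82-fold), Lss (2.03-fold) and Hmgcs1 (1.54-fold) and the lipogenic genes Fasn (1.80-fold), Elovl6 (1.56-fold) and Acly (1.52-fold). In wild-type livers, 5 of the 14 genes were lower and 2 higher on Wy14643 (median -0.18), where 15.4% of all genes were lower and 14.3% higher. Between genotypes on Wy14643, 8 were lower and 3 higher in PPARα-null livers (median -0.79), with the malic enzyme gene Me1 6.71-fold and the acetyl-CoA carboxylase gene Acacb 4.69-fold lower, and on control diet 3 were lower and 0 higher. The shares of all genes were 16.0% lower and 17.1% higher on Wy14643, and 2.30% and 2.32% on control diet. Me1 and Acacb were named for the largest ratios of the list between genotypes on Wy14643. The paper counts malic enzyme and Scd1, both in this list, among PPARα targets already recognized, so the list is not specific to SREBP. Which regulator the ratios follow was not tested.

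Markers of other cell types moved with diet and genotype, and their part in the ratios of the members was not tested. The hepatocyte list held 9 measured markers, all above background on all 4 arrays, with summed intensities of 90368 in PPARα-null and 85348 in wild-type livers on Wy14643 and 89543 in PPARα-null and 89113 in wild-type livers on control diet. Of these, 2 were higher in PPARα-null livers on Wy14643, Tat (2.56-fold) and Cps1 (2.28-fold), and 0 were lower. On Wy14643, 0 of 9 were called in PPARα-null livers, and in wild-type livers 3 were lower, Tat (2.93-fold), Cps1 (2.12-fold) and G6pc (1.73-fold). Acsm1 had the same directions as Tat and Cps1. On control diet, G6pc was 1.57-fold lower in PPARα-null livers. Kupffer cell markers were lower on Wy14643 for 8 of 8 genes in PPARα-null livers (median log2 ratio -1.01) and 7 of 8 in wild-type livers (-1.67). Their sums were 650 in PPARα-null and 418 in wild-type livers on Wy14643, against 1287 in PPARα-null and 1077 in wild-type livers on control diet. Endothelial markers were lower on Wy14643 for 6 of 10 genes in PPARα-null livers (5 with background as the floor) and 1 of 10 in wild-type livers. On Wy14643, 5 of 7 stellate cell markers were higher in PPARα-null livers (median 1.29), with a sum of 2219, against 816 in wild-type livers. Of 4 neutrophil markers above background 3 were higher (2 with background as the floor), S100a8 having 106 in PPARα-null and 14.5 in wild-type livers. Among these, Ngp and Ltf exceeded background only on the PPARα-null Wy14643 array, and S100a8 and S100a9 on all 4 arrays. Outside the PPARα-null Wy14643 array, S100a8 read 12.9 to 15.7 and S100a9 13.2 to 17.6, close to background. On the wild-type Wy14643 array, where Slc27a1 and Slc27a4 were high, the adipocyte sum of 3 genes was 3489, against 78.0 in PPARα-null livers on Wy14643 and 72.0 in wild-type controls. This sum was carried by Fabp4 and Cidec, and the adipocyte genes Adipoq, Lep and Retn were below background on all 4 arrays. Cidec and Lipe entered the sum only through the wild-type Wy14643 array, where alone they exceeded background, whereas Fabp4 exceeded it on all 4. Of 6 muscle markers, Ckm, Myh4, Tnnt3 and Pvalb were below background on all 4 arrays. Acta1 had 29.45 in PPARα-null and 20.6 in wild-type livers on Wy14643, and 11.9 in PPARα-null and 35.5 in wild-type livers on control diet. Mb had 15.9 in PPARα-null and 15.2 in wild-type livers on Wy14643, and 10.4 in PPARα-null and 20.7 in wild-type livers on control diet. Both were thus lower in PPARα-null livers on control diet, where they were below background, and higher on Wy14643 than on control diet in PPARα-null livers (1 of 2 with background as the floor). Shares of all genes for these comparisons were 4.20% lower and 2.20% higher on Wy14643 in PPARα-null livers, 15.4% lower and 14.3% higher in wild-type livers, 16.0% lower and 17.1% higher between genotypes on Wy14643, and 2.30% lower and 2.32% higher on control diet. Of the cholangiocyte, lymphocyte and erythroid lists, 1 of 5, 4 of 7 and 2 of 3 named genes were above background, with sums up to 27.3, 68.8 and 32.3.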

How the data were processed

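Of the experiments in the paper, the 5-day feeding study with 4 pooled arrays was analysed. The deposited intensities were made by the authors with GCRMA, version 2.20 per the submitters' processing notes, and lie on the linear scale. Ratios were formed on the log2 scale. GCRMA adjusts for background and normalizes arrays jointly, and which arrays it was run on is not given in the sources used here. Of 22690 probe sets, 64 controls were left out. Gene symbols came from the platform annotation: 20380 probe sets carried 1 symbol, 691 several and 1555 none. For the wild-type array on Wy14643 the description names control conditions, and the title and source were followed. The design text and the methods describe RNA labelling differently.

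Ratios were called at 1.5-fold, the threshold of the methods, with a stricter one at 2-fold; where 1 array lay below background, the fold is the smallest that background allows. Named were all members, family genes above background, the 2 genes of each further list with the largest ratio between genotypes on Wy14643 among those above background on both arrays, Ppara, and the 3 genes nearest to Slc27a4 and Acsm1. The same rule for Acsl1, and a search of the proteins, were not run. The 7 pathway lists, 10 marker lists and members were chosen with earlier results of these data known. Alternatives were a filter or floor at background, 32 added to every intensity, centring, cyclic loess (limma 3.58.1), other probe sets and the stricter threshold. The calculation was tested on simulated data. Software was Python 3.11.15, numpy 2.4.6, pandas 2.3.3, matplotlib 3.10.9 and R 4.3.3.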

Additional observations from a re-analysis of the deposited data

Results flagged for a closer look

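For Acss2, Acsl5 and Acsl4, the probe set that stands for the gene had log2 ratios of opposite sign on Wy14643 in the 2 genotypes, each with 1 array per group, and the difference was not tested. For Acss2, Wy14643 over control diet gave a log2 ratio of -1.07 in PPARα-null and 0.08 in wild-type livers, a difference of -1.15. The opposite sign was not shared by its other probe set, which gave -0.37 in PPARα-null and -0.10 in wild-type livers. For Acsl5 the ratio equalled -0.25 in PPARα-null and 0.87 in wild-type livers, a difference of -1.11. For Acsl4 the ratio equalled -0.17 in PPARα-null and 0.36 in wild-type livers, a difference of -0.53. Its other probe sets also gave opposite signs: -0.42 in PPARα-null and 2.18 in wild-type livers with 1451828_a_at, and -0.21 and 0.98 with 1418911_s_at. With the probe set standing for each gene, the wild-type ratio of Acss2, the PPARα-null ratio of Acsl5 and both of Acsl4 were below 1.5-fold.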

How the results depend on the processing

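The number of members lower in PPARα-null mice on control diet was 1 as reported, 2 with arrays centred or cyclic loess (Acsl5 added), and 0 with the median over probe sets or a 2-fold threshold. Of 64 alternative counts, the other 60 stayed within 1.5 times. Of 255 alternative values for single genes, 249 kept their side of the threshold. The sign changed in 5, and 0 of these reached 1.5-fold under either setting (Slc27a4 and Acsl4 between genotypes on control diet, Acss2 on Wy14643 in wild-type livers and Slc27a1 in PPARα-null livers). Many of the 255 values could not differ from those reported. The filter at background and the use of unsuffixed probe sets returned the same values for every gene they kept. The floor could change Slc27a1 only, and the median over probe sets Acsl4 and Acss2 only. The 249 is therefore no measure of robustness. With the median over probe sets, Acsl4 passed the threshold between genotypes on Wy14643 (log2 ratio -1.03) and in wild-type mice (0.98), its response difference became -1.19, and Acss2 lost it between genotypes on control diet (-0.47). Acsm3 could not be read without suffixed probe sets. Over all genes, adding 32 to every intensity left 886 lower and 909 higher between genotypes on Wy14643 (1277 and 1361 as reported), 100 and 64 between genotypes on control diet (183 and 185), 142 and 52 for Wy14643 in PPARα-null livers (334 and 175) and 765 and 782 for Wy14643 in wild-type livers (1225 and 1141). Cyclic loess gave 312 and 204 for Wy14643 in PPARα-null livers, and 204 and 147 between genotypes on control diet. Depth is not defined for arrays, and dim probe sets such as those of Slc27a1 limit ratios to bounds. No paired analysis was possible because each group has 1 array.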
